A study of Homo sapiens with 8 samples.

Results

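The genes of DNA replication and the G1/S transition were examined in HUG1N and Caco-2 cells with and without a short hairpin RNA (shRNA) against GATA6. The set was a list of 50 genes chosen by symbol, and the probe set with the highest mean over the 8 arrays stood for each gene. All 50 had a probe set among the 11963 genes on the array, and all 50 were among the 7696 genes that passed the filter on low values, a log2 value over 4 in at least 2 arrays. HUG1N, which the labels also write HuG-1, is a gastric cancer line, and Caco-2 came from a colon carcinoma and forms enterocyte-like layers in culture. The 4 groups, of 2 arrays each, were HUG1N shRNA, HUG1N control, Caco-2 shRNA and Caco-2 control cells, within a study of GATA6, a transcription factor that shapes endoderm-derived tissues, in gastric cancer. The protocol text, which stands on all samples, has cells infected with the GATA6 shRNA and selected with puromycin, and it does not say what the control cells received. It does not name separate cultures for the arrays of a group, so p-values reflect the array-to-array spread alone, and that spread could be technical.

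Replication begins with licensing in G1. The origin recognition complex (ORC) marks start sites, CDC6 and CDT1 load the MCM helicase there, and geminin (GMNN) blocks CDT1 once S phase has begun. The kinases CDC7 and cyclin E with CDK2 then help CDC45 and the GINS complex join the helicase, and polymerases, primase, clamp and clamp loader start synthesis. Many of these genes are transcribed by E2F factors when cyclin D and cyclin E kinases inactivate RB, so their transcripts are common markers of proliferation.

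Promoter sequences were set beside the values because E2F sites near the start are a known feature of these genes. RefSeq promoters (GRCh38.p14, 250 bases before to 50 after the start) were at hand for 43 of the 50 genes. An E2F word (TTTCCCGC, TTTGGCGC, TTTCGCGC or TTTGCCGC, either strand) was in 21 of the 43, or 48.8%, against 3.33% of all 27305 promoters of that length and 5.66% of those of 6401 tested genes. The NF-Y word CCAAT was in 24 of 43 (55.8%, against 35.7% of all promoters and 37.8% of those of tested genes). The CHR word TTTGAA was in 2 of 43 (4.65%, against 15.4% of all promoters and 9.55% of those of tested genes), and a GATA word also in 2 (4.65%, against 25.5% and 14.4%). The GATA words were AGATAA with its variant AGATAG, and TGATAA with its variant TGATAG. Each motif was counted on its own, and matches can overlap, as a pair of CCAAT matches on opposite strands does in CHAF1A. A match describes the letters of this window and is not a measured binding site. Only these words were searched, so a promoter without a match can still hold another form of a site.

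The promoters shown are those of the 5 genes with the smallest p-values for a different shRNA effect in the 2 lines. CHAF1A lies at chr19:4402390-4402689 on the plus strand, GINS2 at chr16:85688905-85689204 on the minus strand, CDT1 at chr16:88803539-88803838 on the plus strand, POLE2 at chr14:49688165-49688464 on the minus strand and CCNE1 at chr19:29811741-29812040 on the plus strand. Each is written 5′ to 3′ in the direction of the gene, in lower case, with matches to the E2F and NF-Y words in capitals.
CHAF1A: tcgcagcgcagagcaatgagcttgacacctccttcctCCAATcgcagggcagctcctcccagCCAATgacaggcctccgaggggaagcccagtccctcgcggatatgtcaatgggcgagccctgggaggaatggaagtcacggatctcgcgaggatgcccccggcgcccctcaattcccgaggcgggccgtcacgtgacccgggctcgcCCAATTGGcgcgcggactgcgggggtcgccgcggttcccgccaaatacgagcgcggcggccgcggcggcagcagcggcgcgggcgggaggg
GINS2: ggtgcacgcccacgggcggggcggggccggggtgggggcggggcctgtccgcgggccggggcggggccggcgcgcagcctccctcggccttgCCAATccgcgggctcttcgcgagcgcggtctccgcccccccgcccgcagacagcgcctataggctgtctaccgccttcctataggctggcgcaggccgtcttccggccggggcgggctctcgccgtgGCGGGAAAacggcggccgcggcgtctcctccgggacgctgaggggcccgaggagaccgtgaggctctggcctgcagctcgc
CDT1: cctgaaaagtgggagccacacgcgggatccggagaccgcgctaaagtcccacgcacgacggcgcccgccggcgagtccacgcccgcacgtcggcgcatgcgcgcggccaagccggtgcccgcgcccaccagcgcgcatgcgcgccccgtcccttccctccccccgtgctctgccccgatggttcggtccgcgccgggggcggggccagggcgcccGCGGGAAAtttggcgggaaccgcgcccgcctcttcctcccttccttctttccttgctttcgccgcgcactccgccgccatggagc
POLE2: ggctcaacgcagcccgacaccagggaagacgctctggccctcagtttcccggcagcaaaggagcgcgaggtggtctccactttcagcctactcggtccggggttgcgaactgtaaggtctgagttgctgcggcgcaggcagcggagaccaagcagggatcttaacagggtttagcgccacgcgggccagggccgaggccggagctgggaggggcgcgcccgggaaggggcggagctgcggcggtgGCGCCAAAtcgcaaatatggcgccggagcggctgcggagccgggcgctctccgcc
CCNE1: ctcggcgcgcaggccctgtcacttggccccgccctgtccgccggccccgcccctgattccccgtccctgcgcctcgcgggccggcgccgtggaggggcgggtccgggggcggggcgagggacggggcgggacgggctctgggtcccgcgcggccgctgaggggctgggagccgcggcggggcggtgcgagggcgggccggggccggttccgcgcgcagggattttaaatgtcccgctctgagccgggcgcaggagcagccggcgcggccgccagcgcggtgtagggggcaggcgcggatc
GINS2 holds the word TTTCCCGC on the minus strand at bases -31 to -24 from the start, and CDT1 holds it on the minus strand at bases -35 to -28. In POLE2 the word TTTGGCGC on the minus strand spans bases -5 to 3. CHAF1A holds 4 matches to CCAAT and none of the E2F words searched, and CCNE1 holds none of the E2F or NF-Y words searched. GINS2 and CDT1 share an E2F word at nearly the same distance from the start, and with the shRNA GINS2 rose and CDT1 fell in HUG1N. Any relation between the word and these changes was not tested.

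GATA6 itself was 12.26 and 12.22 on the log2 scale in HUG1N shRNA arrays, against 12.54 and 12.45 in HUG1N control arrays, a change of -0.25 (SE 0.10, limma adjusted p = 0.0879). In Caco-2 it was 12.23 and 12.02 in shRNA arrays, against 12.63 and 12.45 in control arrays, a fall of -0.42 (SE 0.10, limma adjusted p = 0.0224). The level left was 83.9% of control in HUG1N and 74.9% in Caco-2. All 13 epithelial markers with a probe set were over log2 4 in every group, while of 13 immune markers at most 1, of 8 endothelial markers at most 1 and of 14 fibroblast markers at most 2 had a group mean over it. The summed epithelial level was 17.30 to 17.31 (log2) in HUG1N shRNA and 16.82 to 16.86 in HUG1N control arrays, and 17.42 to 17.46 in Caco-2 shRNA and 16.63 to 16.67 in Caco-2 control arrays. The summed fibroblast level was 6.26 to 6.42 in HUG1N shRNA and 6.27 to 6.30 in HUG1N control arrays, and 7.95 to 8.08 in Caco-2 shRNA and 6.36 to 6.40 in Caco-2 control arrays. Lumican (LUM) had a mean of 7.53 in Caco-2 shRNA and 3.43 in Caco-2 control arrays. The part of these markers in the results was not tested.

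With the shRNA more replication genes rose than fell in HUG1N, and more fell than rose in Caco-2. In HUG1N, 15 of the 50 genes rose and 7 fell with the shRNA, where limma called 24.7% of all genes higher and 23.9% lower. In Caco-2, 4 rose and 21 fell, where 19.5% of all genes were called higher and 19.2% lower. As shares, 30% of the genes rose and 14% fell in HUG1N, and 8% rose and 42% fell in Caco-2. The median change was 0.17 in HUG1N and -0.29 in Caco-2, beside 0.00 for all genes in each line. The counts moved with single arrays: 9 rose in HUG1N without HUG1N shRNA replicate 1, where the median was 0.084, and 3 fell there without HUG1N shRNA replicate 2 or HUG1N control replicate 2 and 4 without HUG1N control replicate 1. In Caco-2, 12 fell without Caco-2 control replicate 1 and 13 without Caco-2 control replicate 2. There 1 rose without Caco-2 control replicate 2, and 2 rose without any other single Caco-2 array. The difference between the effects, HUG1N minus Caco-2, was tested for each gene: 23 of the 50 (46%) were called higher and 4 (8%) lower, where 22.2% of all genes were called higher and 22.7% lower.

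The Caco-2 fall and the HUG1N rise met in 8 genes, 16% of the set, a combination called for 3.44% of all genes. These were MCM4, CDC7, GINS2, PCNA, POLE2, FEN1, CHAF1A and CCNE1, of which GINS2, CHAF1A and CCNE1 kept both calls in all 17 alternatives other than a 2-fold minimum. A further 11 (22%) fell in Caco-2 without a call in HUG1N, as did 8.87% of all genes. In neither line were 16 (32%) called, beside 33.1% of all genes. ORC4 was the one gene called the opposite way, up in Caco-2 and down in HUG1N, and neither call held in all alternatives. Across the 50 genes the effects in the 2 lines had Pearson's r of -0.04 and Spearman's rho of -0.09, beside 0.14 and 0.15 across all 7696 genes. Genes share arrays and are not independent replicates, so these are descriptions.

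**Figure D1:**
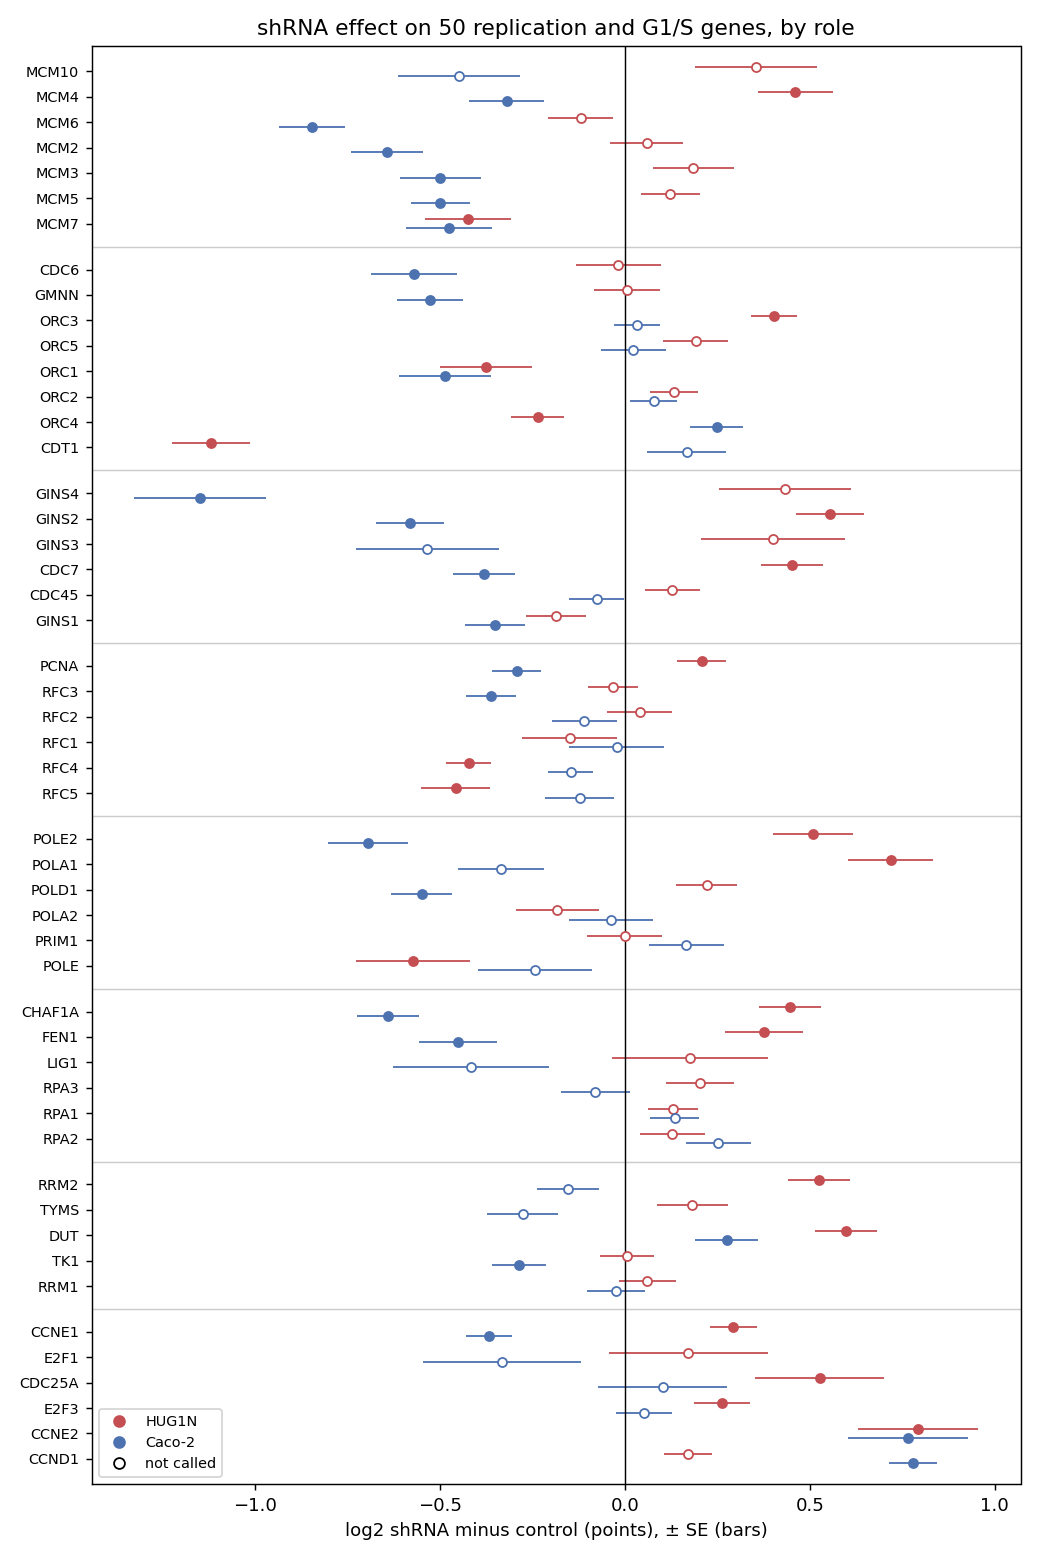
The log2 change with the shRNA (points) and its SE (bars) is plotted for 50 genes in HUG1N (red) and Caco-2 (blue), grouped by role, with filled points where limma called a change. Most blue points lie left of 0, down to -1.15 for GINS4, and most red points lie right of it, with CDT1 at -1.12 as the largest red exception.

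Measures of RNA quality and labelling moved with the groups, and their part in the results was not tested. The gap between the 3′ and 5′ probe sets of ACTB was 3.73 ± 0.06 in HUG1N shRNA and 2.51 ± 0.23 in HUG1N control arrays, and 1.55 ± 0.13 in Caco-2 shRNA and 1.92 ± 0.02 in Caco-2 control arrays (SD, n = 2 each). The mean of the spiked-in hybridisation controls was 10.90 ± 0.05 in HUG1N shRNA and 12.75 ± 0.18 in HUG1N control arrays, and 12.40 ± 0.14 in Caco-2 shRNA and 12.54 ± 0.12 in Caco-2 control arrays (SD, n = 2 each). In these bulk samples fewer cycling cells and less of a transcript per cell cannot be told apart. Scaling moved the median of all genes by less than 0.1 in either line.

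The MCM genes were set side by side first. MCM2 to MCM7 form the ring that unwinds DNA, and MCM10 helps to activate it. All 6 ring subunits fell in Caco-2, where 19.2% of all genes were called lower. In HUG1N MCM4 rose, MCM7 fell and the other 4 were not called, where 24.7% of all genes were called higher and 23.9% lower. MCM6 stood at 10.89 and 10.67 in HUG1N shRNA arrays, against 10.87 and 10.93 in HUG1N control arrays, and at 11.57 and 11.60 in Caco-2 shRNA arrays, against 12.45 and 12.41 in Caco-2 control arrays. The Caco-2 arrays with the shRNA lay below both controls, while the HUG1N groups overlapped. The changes of MCM6 were -0.12 (SE 0.09, limma adjusted p = 0.307) in HUG1N and -0.85 (SE 0.09, limma adjusted p = 8.60e-04) in Caco-2, a difference of 0.73 (SE 0.13, limma adjusted p = 0.00533).

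MCM2 stood at 11.31 and 11.32 in HUG1N shRNA arrays, against 11.14 and 11.38 in HUG1N control arrays, and at 10.27 and 10.38 in Caco-2 shRNA arrays, against 10.99 and 10.94 in Caco-2 control arrays. MCM3 stood at 12.28 and 12.06 in HUG1N shRNA arrays, against 11.90 and 12.07 in HUG1N control arrays, and at 10.93 and 11.09 in Caco-2 shRNA arrays, against 11.52 and 11.50 in Caco-2 control arrays. For both, HUG1N groups overlapped and Caco-2 groups did not. The difference between the lines was 0.70 (SE 0.14, limma adjusted p = 0.00852) for MCM2 and 0.68 (SE 0.16, limma adjusted p = 0.0141) for MCM3, and the Caco-2 falls were -0.64 and -0.50. For MCM3, the Caco-2 call was lost in 4 of 17 alternatives, namely without Caco-2 shRNA replicate 1 or Caco-2 control replicate 1 or 2 (limma adjusted p = 0.0654 to 0.0758) and with the replicate block.

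MCM4 moved both ways. Its level was 10.31 and 10.15 in HUG1N shRNA arrays, against 9.69 and 9.85 in HUG1N control arrays, and 9.94 and 10.13 in Caco-2 shRNA arrays, against 10.36 and 10.34 in Caco-2 control arrays. Neither pair of groups overlapped, and the changes were 0.46 (SE 0.10, limma adjusted p = 0.0113) in HUG1N and -0.32 (SE 0.10, limma adjusted p = 0.0494) in Caco-2, a difference of 0.78 (SE 0.14, limma adjusted p = 0.00662). All 3 other probe sets of MCM4 gave the same signs in both lines, in a fit over the 12758 probe sets that passed the filter. In HUG1N the second brightest gave 0.50 and the third 0.68 (limma adjusted p = 0.00304 and 0.00110). In Caco-2 they gave -0.51 and -0.53 (limma adjusted p = 0.00379 and 0.00356). The dimmest was called in neither line. The alternatives below used the brightest, or the mean of probe sets where named. For MCM4, the Caco-2 call was lost in 10 of 17 alternatives, namely without HUG1N shRNA replicate 1 or 2, HUG1N control replicate 1 or 2, Caco-2 shRNA replicate 1 or Caco-2 control replicate 1 or 2 (limma adjusted p = 0.0540 to 0.205) and with no filter, with each line fitted alone or with the replicate block. Also for MCM4, the HUG1N call was lost in 2 of 17 alternatives, namely without HUG1N shRNA replicate 1 or HUG1N control replicate 1 (limma adjusted p = 0.0553 to 0.0579).

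MCM5 was 8.99 and 8.85 in HUG1N shRNA arrays, against 8.77 and 8.83 in HUG1N control arrays, and 9.03 and 9.09 in Caco-2 shRNA arrays, against 9.51 and 9.61 in Caco-2 control arrays. MCM10 was 8.20 and 7.68 in HUG1N shRNA arrays, against 7.57 and 7.60 in HUG1N control arrays, and 9.26 and 9.28 in Caco-2 shRNA arrays, against 9.65 and 9.80 in Caco-2 control arrays. The groups of neither line overlapped for MCM5 or MCM10. The Caco-2 fall of MCM5 was -0.50 (SE 0.08, limma adjusted p = 0.00445) and the line difference 0.62 (SE 0.11, limma adjusted p = 0.00638). MCM10 was called in neither line, at 0.35 in HUG1N and -0.45 in Caco-2, with a difference of 0.80 (SE 0.23, limma adjusted p = 0.0333). For MCM10, the line difference call was lost in 8 of 16 alternatives, namely without HUG1N control replicate 1 or 2, Caco-2 shRNA replicate 1 or 2 or Caco-2 control replicate 1 or 2 (limma adjusted p = 0.0655 to 0.102) and with no filter or with the replicate block. MCM7 was the ring subunit without a line difference (0.05, SE 0.16, limma adjusted p = 0.821), with changes of -0.43 (SE 0.12, limma adjusted p = 0.0246) in HUG1N and -0.48 (SE 0.12, limma adjusted p = 0.0211) in Caco-2. For MCM7, the HUG1N call was lost in 5 of 17 alternatives, namely without HUG1N shRNA replicate 2 or HUG1N control replicate 1 or 2 (limma adjusted p = 0.0831 to 0.103) and with no filter or with each line fitted alone. Also for MCM7, the Caco-2 call was lost in 4 of 17 alternatives, namely without Caco-2 shRNA replicate 1 or Caco-2 control replicate 1 or 2 (limma adjusted p = 0.0758 to 0.0968) and with no filter.

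Genes that load the helicase were less uniform. The complex members ORC2 and ORC5 were called in neither line by the probe sets that stood for them. A dimmer probe set of ORC5 was called in HUG1N, in a fit over the 12758 probe sets that passed the filter. It rose there by 0.43 (SE 0.10, limma adjusted p = 0.0166) and gave -0.15 in Caco-2 (limma adjusted p = 0.317), uncalled. Its line difference was 0.58 (SE 0.15, limma adjusted p = 0.0222). ORC1, the cell cycle-regulated subunit of the complex, was 6.56 and 6.43 in HUG1N shRNA arrays, against 6.86 and 6.89 in HUG1N control arrays, and 5.83 and 6.18 in Caco-2 shRNA arrays, against 6.44 and 6.55 in Caco-2 control arrays. It fell in both lines, by 0.38 on the log2 scale in HUG1N and by 0.49 in Caco-2 (limma adjusted p = 0.0474 and 0.0248). For ORC1, the HUG1N call was lost in 10 of 17 alternatives, namely without HUG1N shRNA replicate 1 or 2, HUG1N control replicate 1 or 2 or Caco-2 control replicate 1 or 2 (limma adjusted p = 0.0731 to 0.176) and with no filter, with quantile normalization, with median centring or with a variance trend. Also for ORC1, the Caco-2 call was lost in 5 of 17 alternatives, namely without Caco-2 shRNA replicate 1 or Caco-2 control replicate 1 or 2 (limma adjusted p = 0.0689 to 0.120) and with no filter or with each line fitted alone. ORC3 rose in HUG1N, to 10.71 and 10.74 in shRNA arrays, against 10.34 and 10.30 in control arrays, and in Caco-2 it was 9.92 and 9.98 in shRNA arrays, against 9.93 and 9.91 in control arrays. Its difference was 0.37 (SE 0.09, limma adjusted p = 0.0173). For ORC3, the line difference call was lost in 2 of 16 alternatives, namely without Caco-2 control replicate 1 (limma adjusted p = 0.0559) and with the replicate block.

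ORC4 was 11.28 and 11.18 in HUG1N shRNA arrays, against 11.46 and 11.48 in HUG1N control arrays, and 11.07 and 11.02 in Caco-2 shRNA arrays, against 10.84 and 10.75 in Caco-2 control arrays. It fell in HUG1N (-0.24, SE 0.07, limma adjusted p = 0.0359) and rose in Caco-2 (0.25, SE 0.07, limma adjusted p = 0.0374). A dimmer probe set of ORC4 gave 0.39 in HUG1N and 0.40 in Caco-2, both uncalled. With the mean of its probe sets the HUG1N change was 0.079 (limma adjusted p = 0.578), the opposite sign, and the line difference was -0.25 (limma adjusted p = 0.223). For ORC4, the HUG1N call was lost in 9 of 17 alternatives, namely without HUG1N shRNA replicate 2, HUG1N control replicate 1 or 2 or Caco-2 control replicate 1 or 2 (limma adjusted p = 0.0509 to 0.127) and with median centring, with each line fitted alone, with the mean of probe sets or with the replicate block. Also for ORC4, the Caco-2 call was lost in 9 of 17 alternatives, namely without HUG1N control replicate 1 or 2, Caco-2 shRNA replicate 1 or 2 or Caco-2 control replicate 1 or 2 (limma adjusted p = 0.0548 to 0.167) and with each line fitted alone, with the mean of probe sets or with the replicate block.

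CDT1, the loading factor that is destroyed in S phase, had the largest fall of the set in HUG1N. Its level was 6.29 and 6.26 in HUG1N shRNA arrays, against 7.25 and 7.55 in HUG1N control arrays, and 8.15 and 8.16 in Caco-2 shRNA arrays, against 8.02 and 7.95 in Caco-2 control arrays. The HUG1N groups did not overlap, and the Caco-2 shRNA arrays lay just above both controls. The changes were -1.12 (SE 0.11, limma adjusted p = 5.30e-04) in HUG1N and 0.17 (SE 0.11, limma adjusted p = 0.269) in Caco-2, a difference of -1.29 (SE 0.15, limma adjusted p = 0.00139).

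Geminin and CDC6 fell in Caco-2 and were not called in HUG1N. GMNN, the inhibitor of CDT1, was 11.96 and 11.79 in HUG1N shRNA arrays, against 11.81 and 11.93 in HUG1N control arrays, and 12.42 and 12.34 in Caco-2 shRNA arrays, against 12.87 and 12.95 in Caco-2 control arrays. CDC6, the ATPase that works with CDT1, was 9.44 and 9.17 in HUG1N shRNA arrays, against 9.26 and 9.38 in HUG1N control arrays, and 9.10 and 8.94 in Caco-2 shRNA arrays, against 9.64 and 9.55 in Caco-2 control arrays. HUG1N groups overlapped for both genes. Their Caco-2 changes were -0.53 (SE 0.09, limma adjusted p = 0.00558) and -0.57 (SE 0.12, limma adjusted p = 0.0109), and their line differences 0.53 (SE 0.13, limma adjusted p = 0.0167) and 0.55 (SE 0.16, limma adjusted p = 0.0353). For GMNN, the line difference call was lost in 4 of 16 alternatives, namely without HUG1N control replicate 1, Caco-2 shRNA replicate 2 or Caco-2 control replicate 2 (limma adjusted p = 0.0506 to 0.0580) and with the replicate block. For CDC6, the Caco-2 call was lost in 2 of 17 alternatives, namely without Caco-2 shRNA replicate 2 or Caco-2 control replicate 1 (limma adjusted p = 0.0589 to 0.0633). Also for CDC6, the line difference call was lost in 9 of 16 alternatives, namely without HUG1N shRNA replicate 1, HUG1N control replicate 1 or 2, Caco-2 shRNA replicate 2 or Caco-2 control replicate 1 or 2 (limma adjusted p = 0.0577 to 0.105) and with no filter, with the mean of probe sets or with the replicate block.

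By the probe sets that stood for the genes, the factors that activate the helicase included the gene with the largest line difference of the 50, GINS4. GINS1 to GINS4 form a tetramer that joins MCM and CDC45 into the working helicase, and CDC7 is the kinase that phosphorylates MCM proteins. GINS4 stood at 6.99 and 6.99 in HUG1N shRNA arrays, against 6.52 and 6.60 in HUG1N control arrays, and at 4.45 and 5.0 in Caco-2 shRNA arrays, against 5.99 and 5.77 in Caco-2 control arrays. Its Caco-2 fall of -1.15 (SE 0.18, limma adjusted p = 0.00391) was the largest of the 50 genes, its HUG1N change was 0.43 (SE 0.18, limma adjusted p = 0.0890), and the difference was 1.58 (SE 0.25, limma adjusted p = 0.00399). Both Caco-2 shRNA arrays lay under the controls, but they stood apart from each other. Their values were little above the filter's bound of log2 4, and GINS4 had only 1 probe set.

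GINS2 stood at 8.82 and 8.70 in HUG1N shRNA arrays, against 8.27 and 8.14 in HUG1N control arrays, and at 10.81 and 10.98 in Caco-2 shRNA arrays, against 11.48 and 11.48 in Caco-2 control arrays. It rose in HUG1N and fell in Caco-2, by 0.55 (SE 0.09, limma adjusted p = 0.00384) in HUG1N and -0.58 (SE 0.09, limma adjusted p = 0.00433) in Caco-2, with a difference of 1.14 (SE 0.13, limma adjusted p = 0.00131). No groups of a line overlapped, and every HUG1N array was below every Caco-2 array.

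CDC7 was 8.58 and 8.70 in HUG1N shRNA arrays, against 8.20 and 8.18 in HUG1N control arrays, and 8.94 and 8.78 in Caco-2 shRNA arrays, against 9.20 and 9.28 in Caco-2 control arrays. Its changes were 0.45 (SE 0.08, limma adjusted p = 0.00578) in HUG1N and -0.38 (SE 0.08, limma adjusted p = 0.0145) in Caco-2, a difference of 0.83 (SE 0.12, limma adjusted p = 0.00269). GINS3 was 7.26 and 6.69 in HUG1N shRNA arrays, against 6.69 and 6.46 in HUG1N control arrays, and 8.08 and 8.21 in Caco-2 shRNA arrays, against 8.77 and 8.58 in Caco-2 control arrays. The groups of neither line overlapped for CDC7, and those of HUG1N touched at 6.69 for GINS3. By its brightest probe set GINS3 was called in neither line, and its difference was 0.93 (SE 0.27, limma adjusted p = 0.0343). Its dimmer probe set was called in both lines, in a fit over the 12758 probe sets that passed the filter. It rose by 1.25 (SE 0.17, limma adjusted p = 0.00204) in HUG1N and changed by -0.70 (SE 0.17, limma adjusted p = 0.0226) in Caco-2. Its difference was 1.95 (SE 0.24, limma adjusted p = 0.00188). For CDC7, the Caco-2 call was lost in 3 of 17 alternatives, namely without Caco-2 shRNA replicate 2 or Caco-2 control replicate 2 (limma adjusted p = 0.0639 to 0.0807) and with the replicate block. For GINS3, the line difference call was lost in 7 of 16 alternatives, namely without HUG1N control replicate 1 or 2, Caco-2 shRNA replicate 1 or 2 or Caco-2 control replicate 1 or 2 (limma adjusted p = 0.0562 to 0.106) and with no filter. GINS1 fell in Caco-2 (-0.35, SE 0.08, limma adjusted p = 0.0179) with -0.19 (SE 0.08, limma adjusted p = 0.106) in HUG1N, and CDC45 was called in neither line. For GINS1, the Caco-2 call was lost in 3 of 17 alternatives, namely without Caco-2 shRNA replicate 2 or Caco-2 control replicate 1 or 2 (limma adjusted p = 0.0708 to 0.0821).

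**Figure D2:**
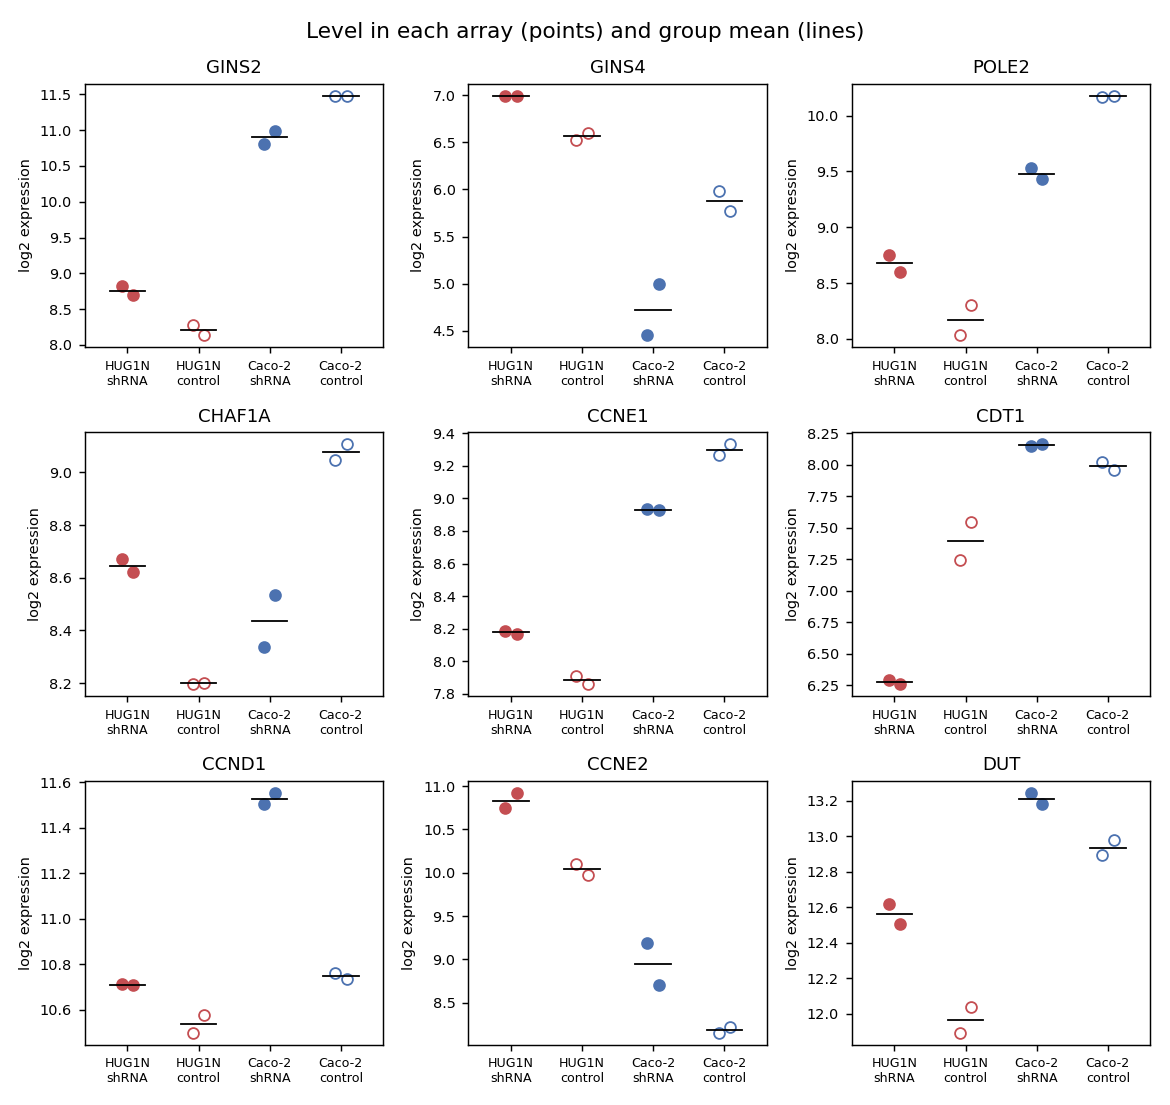
Log2 expression is plotted in each array (points) with the group mean (lines) for 9 genes, HUG1N in red and Caco-2 in blue, shRNA filled and control open, on an axis fitted to each gene. GINS2, POLE2, CHAF1A and CCNE1 show the shRNA arrays above control in HUG1N and below control in Caco-2, while CCNE2 and DUT lie above control in both.

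PCNA, the clamp that holds polymerases on DNA, was 13.76 and 13.76 in HUG1N shRNA arrays, against 13.57 and 13.53 in HUG1N control arrays, and 13.57 and 13.54 in Caco-2 shRNA arrays, against 13.90 and 13.80 in Caco-2 control arrays. Neither pair of groups overlapped, the changes were 0.21 (SE 0.07, limma adjusted p = 0.0427) in HUG1N and -0.29 (SE 0.07, limma adjusted p = 0.0165) in Caco-2, and the difference was 0.50 (SE 0.09, limma adjusted p = 0.00725). For PCNA, the HUG1N call was lost in 10 of 17 alternatives, namely without any single array (limma adjusted p = 0.0537 to 0.134) and with each line fitted alone or with the replicate block. Also for PCNA, the Caco-2 call was lost in 3 of 17 alternatives, namely without Caco-2 shRNA replicate 1 or 2 or Caco-2 control replicate 1 (limma adjusted p = 0.0514 to 0.0867). RFC3, a subunit of the loader, fell in Caco-2, to 11.34 and 11.26 in shRNA arrays, against 11.68 and 11.64 in control arrays, and was 10.09 and 10.07 in HUG1N shRNA arrays, against 10.07 and 10.15 in HUG1N control arrays (difference 0.33, SE 0.10, limma adjusted p = 0.0322). RFC4 fell in HUG1N, to 11.31 and 11.34 in shRNA arrays, against 11.77 and 11.74 in control arrays, and was 11.11 and 11.13 in Caco-2 shRNA arrays, against 11.27 and 11.26 in Caco-2 control arrays (difference -0.28, SE 0.09, limma adjusted p = 0.0407). For RFC3, the line difference call was lost in 7 of 16 alternatives, namely without HUG1N shRNA replicate 1 or 2, HUG1N control replicate 1, Caco-2 shRNA replicate 2 or Caco-2 control replicate 1 or 2 (limma adjusted p = 0.0568 to 0.0917) and with the replicate block. For RFC4, the line difference call was lost in 10 of 16 alternatives, namely without any single array (limma adjusted p = 0.0580 to 0.104) and with median centring or with the replicate block. RFC1 and RFC2 were called in neither line.

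RFC5, another loader subunit, depended on the probe set. The brightest was 10.76 and 10.80 in HUG1N shRNA arrays, against 11.28 and 11.19 in HUG1N control arrays, and 10.53 and 10.39 in Caco-2 shRNA arrays, against 10.49 and 10.67 in Caco-2 control arrays. By it RFC5 fell in HUG1N (-0.46, SE 0.09, limma adjusted p = 0.00821) and was not called in Caco-2 (-0.12, SE 0.09, limma adjusted p = 0.348). With the mean of its probe sets the HUG1N change was 0.033 (limma adjusted p = 0.795), the opposite sign. The second brightest was 10.69 and 10.55 in HUG1N shRNA arrays, against 10.43 and 10.34 in HUG1N control arrays, and 10.32 and 10.40 in Caco-2 shRNA arrays, against 11.00 and 11.03 in Caco-2 control arrays. In a fit over the 12758 probe sets that passed the filter, the second brightest changed by 0.23 (SE 0.08, limma adjusted p = 0.0551) in HUG1N and by -0.66 (SE 0.08, limma adjusted p = 0.00187) in Caco-2, and the dimmest by 0.32 (SE 0.15, limma adjusted p = 0.121) in HUG1N and -0.96 (SE 0.15, limma adjusted p = 0.00432) in Caco-2. The 2 dimmer probe sets thus differed from the brightest in sign in HUG1N and in call in Caco-2. They also differed from it in the line difference. That was -0.34 (SE 0.13, limma adjusted p = 0.0819) for the brightest, uncalled. It was 0.89 (SE 0.11, limma adjusted p = 0.00216) for the second brightest and 1.28 (SE 0.21, limma adjusted p = 0.00478) for the dimmest, both called higher.

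**Figure D3:**
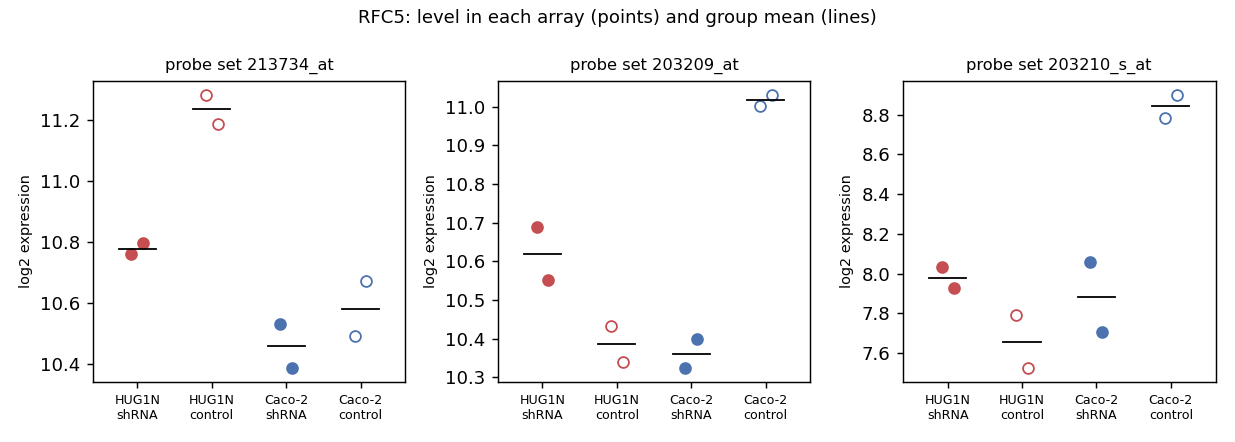
Log2 expression of the 3 RFC5 probe sets is plotted in each array (points) with group means (lines), HUG1N in red and Caco-2 in blue, shRNA filled and control open. In the brightest probe set the HUG1N shRNA arrays lie below the HUG1N controls, at 10.76 and 10.80, and in the other probe sets they lie above them.

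Over all genes with several probe sets, RFC5 included, signs mostly matched. For 22 genes 27 further probe sets were tested, and 19 had the sign of the brightest in HUG1N and 24 in Caco-2. At an unadjusted limma p under 0.05, none moved against the brightest one in Caco-2. In HUG1N 2 did, those of RFC5 and TYMS. In the line difference 22 of the 27 had the sign of the brightest, and 2 moved against it at that p, both of RFC5.

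Replicative polymerases divided by subunit. POLE2, the second subunit of the leading-strand polymerase epsilon, was 8.75 and 8.60 in HUG1N shRNA arrays, against 8.03 and 8.30 in HUG1N control arrays, and 9.53 and 9.43 in Caco-2 shRNA arrays, against 10.17 and 10.18 in Caco-2 control arrays. It rose in HUG1N and fell in Caco-2, by 0.51 (SE 0.11, limma adjusted p = 0.01) in HUG1N and -0.69 (SE 0.11, limma adjusted p = 0.00407) in Caco-2, a difference of 1.20 (SE 0.15, limma adjusted p = 0.00188). No groups of a line overlapped. The HUG1N call was lost with each line fitted alone and without HUG1N shRNA replicate 1 (0.43, limma adjusted p = 0.0513).

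The catalytic subunit of the same enzyme, POLE, was 7.86 and 7.53 in HUG1N shRNA arrays, against 8.35 and 8.18 in HUG1N control arrays, and 8.60 and 8.92 in Caco-2 shRNA arrays, against 8.94 and 9.07 in Caco-2 control arrays. It fell in HUG1N (-0.57, SE 0.15, limma adjusted p = 0.0233), opposite to POLE2, and was not called in Caco-2 (-0.24, SE 0.15, limma adjusted p = 0.267). For POLE, the HUG1N call was lost in 5 of 17 alternatives, namely without HUG1N shRNA replicate 2 or HUG1N control replicate 1 or 2 (limma adjusted p = 0.0519 to 0.111) and with no filter or with each line fitted alone.

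POLA1, the catalytic subunit of the priming polymerase alpha, had the largest HUG1N rise among the polymerase genes. Its level was 7.33 and 7.10 in HUG1N shRNA arrays, against 6.60 and 6.39 in HUG1N control arrays, and 6.48 and 6.40 in Caco-2 shRNA arrays, against 6.70 and 6.85 in Caco-2 control arrays. The changes were 0.72 (SE 0.12, limma adjusted p = 0.00337) in HUG1N and -0.34 (SE 0.12, limma adjusted p = 0.0633) in Caco-2, a difference of 1.05 (SE 0.16, limma adjusted p = 0.00363). POLD1, the catalytic subunit of the lagging-strand polymerase delta, was 7.86 and 7.88 in HUG1N shRNA arrays, against 7.58 and 7.72 in HUG1N control arrays, and 8.40 and 8.51 in Caco-2 shRNA arrays, against 8.95 and 9.05 in Caco-2 control arrays. The groups of neither line overlapped for POLA1 or POLD1. POLD1 fell in Caco-2 (-0.55, SE 0.08, limma adjusted p = 0.00348), and its difference was 0.77 (SE 0.12, limma adjusted p = 0.00339). The other alpha subunit POLA2 and the primase PRIM1 were called in neither line.

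CHAF1A and FEN1 rose in HUG1N and fell in Caco-2. CHAF1A, the large subunit of the chromatin assembly factor that places histones behind the fork, was 8.67 and 8.62 in HUG1N shRNA arrays, against 8.20 and 8.20 in HUG1N control arrays, and 8.34 and 8.54 in Caco-2 shRNA arrays, against 9.05 and 9.11 in Caco-2 control arrays. In control arrays its level was lower in HUG1N than in Caco-2, and in shRNA arrays it was higher in HUG1N. The changes were 0.45 (SE 0.08, limma adjusted p = 0.00641) in HUG1N and -0.64 (SE 0.08, limma adjusted p = 0.00216) in Caco-2, and the difference of 1.09 (SE 0.12, limma adjusted p = 0.00114) had the smallest p of the 50 genes. Its other 2 probe sets gave the same signs.

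FEN1, the nuclease that trims Okazaki fragments, was 11.59 and 11.37 in HUG1N shRNA arrays, against 11.07 and 11.14 in HUG1N control arrays, and 11.61 and 11.80 in Caco-2 shRNA arrays, against 12.20 and 12.11 in Caco-2 control arrays. The groups of neither line overlapped. Its changes were 0.38 (SE 0.11, limma adjusted p = 0.0270) in HUG1N and -0.45 (SE 0.11, limma adjusted p = 0.0180) in Caco-2, a difference of 0.83 (SE 0.15, limma adjusted p = 0.00618). For FEN1, the HUG1N call was lost in 6 of 17 alternatives, namely without HUG1N shRNA replicate 1 or HUG1N control replicate 1 or 2 (limma adjusted p = 0.0675 to 0.113) and with no filter, with each line fitted alone or with the replicate block. Also for FEN1, the Caco-2 call was lost in 4 of 17 alternatives, namely without Caco-2 shRNA replicate 1 or Caco-2 control replicate 1 or 2 (limma adjusted p = 0.0584 to 0.0923) and with the replicate block. The ligase LIG1, at 0.18 in HUG1N and -0.42 in Caco-2, was not called, and neither were RPA1, RPA2 and RPA3, the subunits of the single-strand binding protein, whose changes ran from 0.13 to 0.20 in HUG1N and from -0.08 to 0.25 in Caco-2.

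Of 5 nucleotide supply genes 2 rose in HUG1N, and in Caco-2 1 rose and 1 fell. Among all genes 24.7% were called higher and 23.9% lower in HUG1N, and 19.5% and 19.2% in Caco-2, so the Caco-2 counts were near the background. RRM2, the S phase subunit of ribonucleotide reductase, was 12.74 and 12.77 in HUG1N shRNA arrays, against 12.15 and 12.31 in HUG1N control arrays, and 12.87 and 12.98 in Caco-2 shRNA arrays, against 13.12 and 13.04 in Caco-2 control arrays. Groups did not overlap in either line. RRM2 rose in HUG1N (0.52, SE 0.08, limma adjusted p = 0.00329) and was not called in Caco-2 (-0.15, SE 0.08, limma adjusted p = 0.199), a difference of 0.68 (SE 0.12, limma adjusted p = 0.00553). RRM1, the partner subunit, was called in neither line.

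DUT, which removes dUTP before it can enter DNA, was 12.62 and 12.50 in HUG1N shRNA arrays, against 11.89 and 12.04 in HUG1N control arrays, and 13.24 and 13.18 in Caco-2 shRNA arrays, against 12.89 and 12.98 in Caco-2 control arrays. It rose in both lines, by 0.60 (SE 0.08, limma adjusted p = 0.00210) in HUG1N and 0.28 (SE 0.08, limma adjusted p = 0.0449) in Caco-2, and its probe set is of a type (_x_at) that can bind related transcripts. One of its other 2 probe sets gave -0.10 in Caco-2 (limma adjusted p = 0.792). For DUT, the Caco-2 call was lost in 7 of 17 alternatives, namely without Caco-2 shRNA replicate 1 or 2 or Caco-2 control replicate 1 or 2 (limma adjusted p = 0.0941 to 0.187) and with no filter, with the mean of probe sets or with the replicate block. TYMS, the thymidylate synthase, was 13.78 and 13.57 in HUG1N shRNA arrays, against 13.47 and 13.52 in HUG1N control arrays, and 13.22 and 13.36 in Caco-2 shRNA arrays, against 13.53 and 13.60 in Caco-2 control arrays. By its brightest probe set TYMS was called in neither line. Its difference of 0.46 (SE 0.14, limma adjusted p = 0.0355) was 0.11 with the mean of its probe sets (limma adjusted p = 0.681). In a fit over the 12758 probe sets that passed the filter, its dimmer one fell in HUG1N (-0.95, SE 0.26, limma adjusted p = 0.0261). That probe set gave -0.71 in Caco-2 and a line difference of -0.24, both uncalled. Its group means, 3.16 to 4.33, were near log2 4. For TYMS, the line difference call was lost in 9 of 16 alternatives, namely without HUG1N shRNA replicate 1, HUG1N control replicate 1 or 2, Caco-2 shRNA replicate 1 or Caco-2 control replicate 1 or 2 (limma adjusted p = 0.0692 to 0.103) and with no filter, with the mean of probe sets or with the replicate block. TK1, the salvage kinase, fell in Caco-2 (-0.29, SE 0.07, limma adjusted p = 0.0237) and was not called in HUG1N (0.01, SE 0.07, limma adjusted p = 0.974). For TK1, the Caco-2 call was lost in 5 of 17 alternatives, namely without Caco-2 shRNA replicate 1 or 2 or Caco-2 control replicate 1 or 2 (limma adjusted p = 0.0627 to 0.105) and with the replicate block.

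The G1 regulators did not share one direction. CCND1, or cyclin D1, was 10.71 and 10.71 in HUG1N shRNA arrays, against 10.50 and 10.58 in HUG1N control arrays, and 11.50 and 11.55 in Caco-2 shRNA arrays, against 10.76 and 10.74 in Caco-2 control arrays. It rose in Caco-2 (0.78, SE 0.06, limma adjusted p = 3.65e-04), against the course of most replication genes there, and its HUG1N change was 0.17 (SE 0.06, limma adjusted p = 0.0709), a difference of -0.61 (SE 0.09, limma adjusted p = 0.00331). The Caco-2 groups lay far apart compared with the spread between replicates. A second probe set of CCND1 gave 0.36 (SE 0.12, limma adjusted p = 0.0536) in Caco-2 and a line difference of -0.33 (SE 0.16, limma adjusted p = 0.157), both uncalled.

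The E cyclins activate CDK2 at the G1/S boundary, and they parted in Caco-2. CCNE1 was 8.19 and 8.16 in HUG1N shRNA arrays, against 7.91 and 7.86 in HUG1N control arrays, and 8.94 and 8.93 in Caco-2 shRNA arrays, against 9.27 and 9.33 in Caco-2 control arrays. CCNE2 was 10.75 and 10.92 in HUG1N shRNA arrays, against 10.10 and 9.98 in HUG1N control arrays, and 9.19 and 8.71 in Caco-2 shRNA arrays, against 8.15 and 8.22 in Caco-2 control arrays. CCNE1 rose in HUG1N and fell in Caco-2, by 0.29 (SE 0.06, limma adjusted p = 0.0105) in HUG1N and -0.37 (SE 0.06, limma adjusted p = 0.00582) in Caco-2, a difference of 0.66 (SE 0.09, limma adjusted p = 0.00230). CCNE2 rose in both, by 0.79 (SE 0.16, limma adjusted p = 0.00849) in HUG1N and 0.77 (SE 0.16, limma adjusted p = 0.0126) in Caco-2, and its effects were not called different (0.03, SE 0.23, limma adjusted p = 0.932). For CCNE2, the Caco-2 call was lost in 4 of 17 alternatives, namely without Caco-2 control replicate 1 or 2 (limma adjusted p = 0.0555 to 0.0675) and with no filter or with each line fitted alone.

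CDC25A, the phosphatase that frees CDK2 from inhibition, was 8.24 and 8.11 in HUG1N shRNA arrays, against 7.37 and 7.93 in HUG1N control arrays, and 9.29 and 9.34 in Caco-2 shRNA arrays, against 9.24 and 9.19 in Caco-2 control arrays. It rose in HUG1N (0.53, SE 0.17, limma adjusted p = 0.0471) and was not called in Caco-2 (0.10, SE 0.17, limma adjusted p = 0.697). For CDC25A, the HUG1N call was lost in 11 of 17 alternatives, namely without HUG1N shRNA replicate 1 or 2, HUG1N control replicate 1, Caco-2 shRNA replicate 1 or 2 or Caco-2 control replicate 1 or 2 (limma adjusted p = 0.0783 to 0.171) and with no filter, with each line fitted alone, with the mean of probe sets or with the replicate block. The transcription factor E2F3 rose in HUG1N (0.26, SE 0.08, limma adjusted p = 0.0297) with 0.05 in Caco-2, and E2F1 was called in neither line (0.17 in HUG1N and -0.33 in Caco-2). For E2F3, the HUG1N call was lost in 5 of 17 alternatives, namely without HUG1N shRNA replicate 1 or HUG1N control replicate 1 or 2 (limma adjusted p = 0.0684 to 0.110) and with each line fitted alone or with the replicate block.

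**Figure D4:**
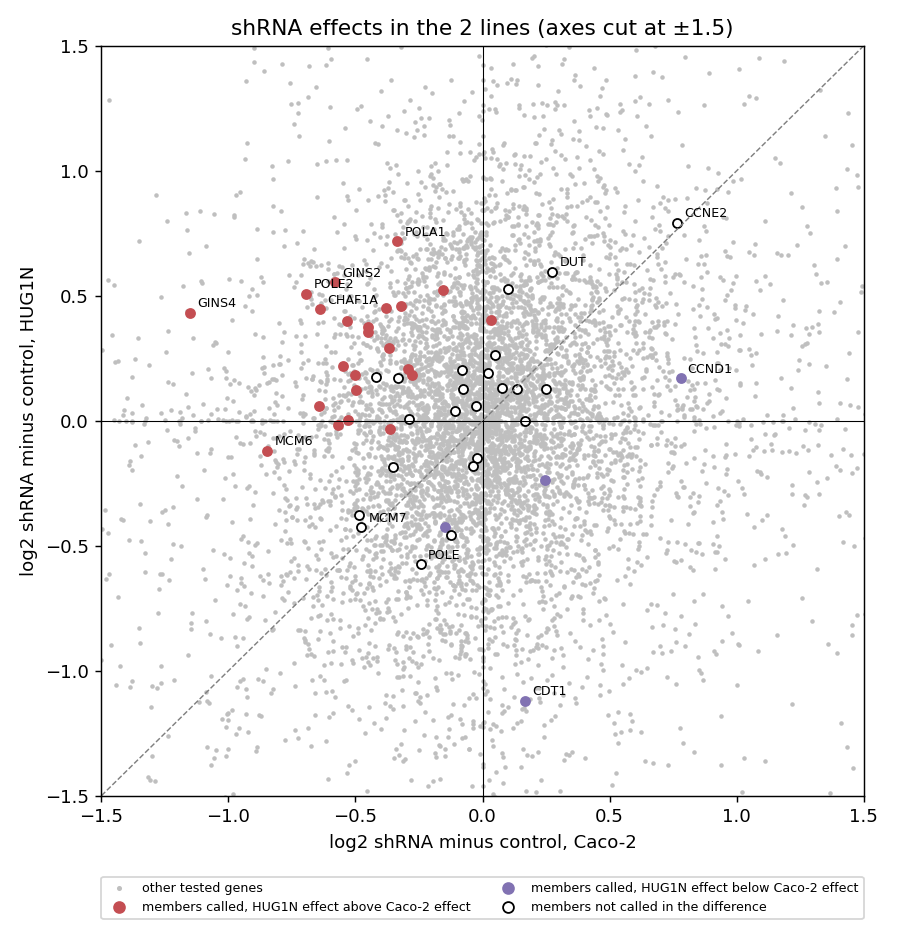
Each point is a tested gene, with its log2 change with the shRNA in Caco-2 on the x axis and in HUG1N on the y axis, and both axes end at 1.5 each way. The 23 genes with a called higher effect in HUG1N (red) lie above the dashed line of equal effects, GINS4 farthest from it, and CDT1, CCND1, ORC4 and RFC4 (purple) lie below it.

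The promoter words were counted over these groups as a description. An E2F word was in 12 of 20 promoters (60%) of genes called higher in the line difference, in 8 of 20 (40%) of genes not called, and in 1 of 3 of those called lower, that of CDT1. The NF-Y word was in 10 of 20 (50%) and 14 of 20 (70%) of the first 2 groups. A GATA word was in 1 of 20 promoters of each.

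The control arrays of the 2 lines also differed. Of the 50 genes 15 were higher and 29 lower in HUG1N control than in Caco-2 control arrays, where limma called 37.1% of all genes higher and 41.3% lower. Without Caco-2 control replicate 2 or HUG1N control replicate 2, 7 were higher. The median difference was -0.47, beside -0.05 for all genes. GINS2 was 8.21 ± 0.10 in HUG1N control and 11.48 ± 0.0032 in Caco-2 control arrays (SD, n = 2 each), a difference of -3.27 (SE 0.09, limma adjusted p = 4.45e-07). CCNE2 was the one gene at least 1 log2 unit higher, at 1.86 (SE 0.16, limma adjusted p = 6.27e-05).

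Between the controls, limma called 3534 of all 7696 genes with a difference of at least 1 log2 unit, in either direction. In the set 1 such gene was higher and 15 were lower, a smaller share than among all genes. Beside GINS2, another 14 genes were at least 1 log2 unit lower in HUG1N control arrays. MCM10 (-2.13), GINS3 (-2.10), POLE2 (-2.01) and RRM1 (-1.78) led them, followed by CDC25A (-1.57), RFC3 (-1.55), MCM6 (-1.53) and CCNE1 (-1.42). LIG1 (-1.40), POLD1 (-1.35), CDC7 (-1.05), FEN1 (-1.05), GINS1 (-1.04) and GMNN (-1.04) completed the list, at limma adjusted p up to 9.38e-04. The ACTB gap was 2.51 ± 0.23 in HUG1N control and 1.92 ± 0.02 in Caco-2 control arrays (SD, n = 2 each), and its part in these differences was not tested. Since this comparison shares the control arrays with both shRNA comparisons, no relation between them is given.

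**Figure D5:**
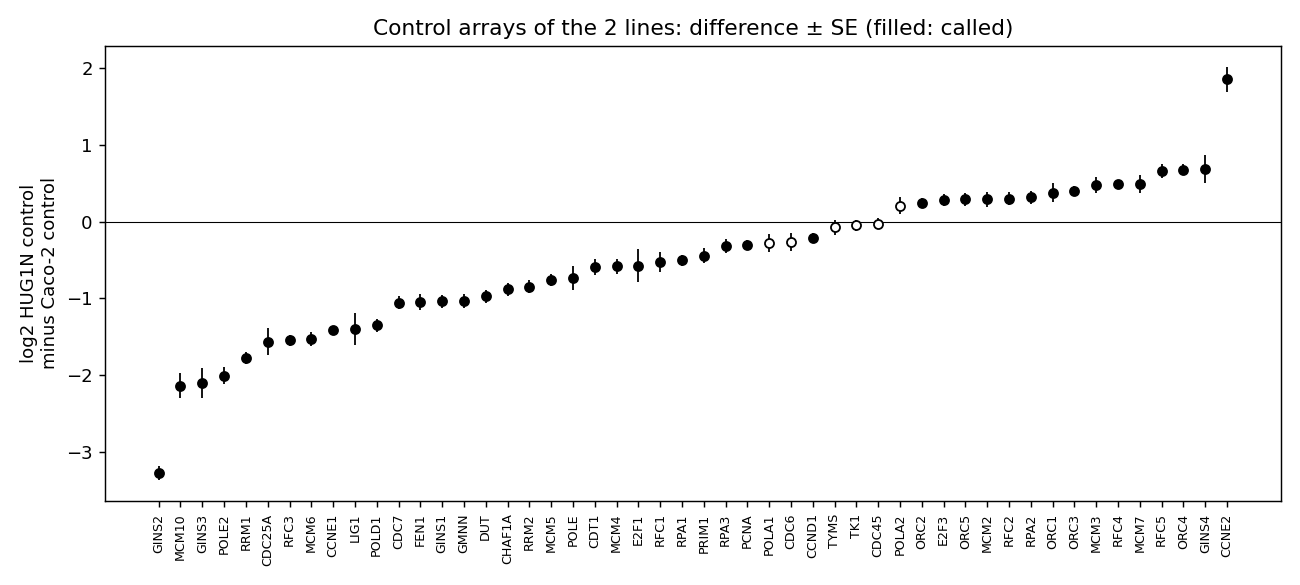
The log2 difference between HUG1N control and Caco-2 control arrays (points) with its SE (bars) is plotted for 50 genes in rising order, filled where limma called it. GINS2 at -3.27 and CCNE2 at 1.86 stand at the ends.

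Of 27 tested licensing and fork genes from a companion list, 10 rose and 4 fell in HUG1N, and 3 rose and 11 fell in Caco-2. The median change was 0.18 in HUG1N and -0.23 in Caco-2, and the line difference was called higher for 14 and lower for 2. Among all genes 24.7% were called higher and 23.9% lower in HUG1N, 19.5% and 19.2% in Caco-2, and 22.2% and 22.7% in the line difference. MCM9 (2.19, SE 0.16) and RNASEH2B (2.00, SE 0.19) led the rises in HUG1N; their means were 6.59 and 6.94 in HUG1N shRNA arrays, against 4.40 and 4.94 in HUG1N control arrays. Next came the MCM-binding protein MCMBP (0.96, SE 0.10). DSCC1, which serves the cohesion clamp loader, fell in both lines (-0.98, SE 0.12, in HUG1N and -1.43, SE 0.12, in Caco-2), as did the polymerase delta subunit POLD3 (-0.34, SE 0.07, in HUG1N and -0.73, SE 0.07, in Caco-2). The clamp unloader ATAD5 fell in Caco-2 (-1.05, SE 0.24), and the histone mRNA binding protein SLBP fell in HUG1N (-0.34, SE 0.08) and rose in Caco-2 (0.25, SE 0.08). POLD4 and RNASEH1 rose in Caco-2 (0.47, SE 0.11, for POLD4 and 0.36, SE 0.09, for RNASEH1).

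For S phase chromatin and repair genes, of 24 tested, 9 rose and 2 fell in HUG1N, 0 rose and 8 fell in Caco-2, and the line difference was called higher for 11 and lower for 0 by limma. The shares of all genes were 24.7% higher and 23.9% lower in HUG1N, 19.5% and 19.2% in Caco-2, and 22.2% and 22.7% in the line difference. HELLS, a chromatin remodeller, fell in both lines (-0.45, SE 0.15, in HUG1N and -1.47, SE 0.15, in Caco-2). BRCA1 (-0.73, SE 0.08) and the histone chaperone NASP (-0.67, SE 0.08) fell in Caco-2. In HUG1N the checkpoint kinase ATR (0.48, SE 0.07), the methyltransferase EZH2 (0.49, SE 0.08) and the uracil glycosylase UNG (0.42, SE 0.08) rose, and the histone chaperone ASF1B (-0.57, SE 0.10) fell.

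For kinases and the RB and E2F family, of 25 tested, 6 rose and 7 fell in HUG1N, 4 rose and 8 fell in Caco-2, and the line difference was called higher for 8 and lower for 6. Beside the shares of all genes (24.7% higher and 23.9% lower in HUG1N, 19.5% and 19.2% in Caco-2, 22.2% and 22.7% in the difference), the HUG1N counts were near the background. The retinoblastoma gene RB1 (0.95, SE 0.16), the kinase WEE1 (0.52, SE 0.08) and the repressor E2F6 (0.50, SE 0.11) rose in HUG1N. CKS2 (-1.04, SE 0.13), the E2F partner TFDP2 (-1.02, SE 0.10) and the ubiquitin ligase subunit FBXW7 (-0.79, SE 0.10) fell there. In Caco-2 cyclin D2 (CCND2) fell (-2.63, SE 0.26) and cyclin D3 (CCND3) rose (1.22, SE 0.21), beside the rise of CCND1. CDK7 (0.91, SE 0.09) and WEE1 (0.45, SE 0.08) also rose there, and the RB relative RBL1 (-0.79, SE 0.11) and the ubiquitin ligase subunit SKP2 (-0.64, SE 0.09) fell. CCND2 had a mean of 2.38 in both HUG1N groups, under log2 4, so no HUG1N change is given.

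For nucleotide enzymes outside the set, of 22 tested, 8 rose and 3 fell in HUG1N, 2 rose and 4 fell in Caco-2, and the line difference was called higher for 4 and lower for 4. With 24.7% of all genes higher and 23.9% lower in HUG1N, 19.5% and 19.2% in Caco-2, and 22.2% and 22.7% in the difference, the counts in the difference and of falls in Caco-2 were near the background. The mitochondrial folate enzymes SHMT2 (-1.21, SE 0.09) and MTHFD2 (-0.52, SE 0.06) and the guanine nucleotide enzyme GMPS (-0.35, SE 0.08) fell in HUG1N, and MTHFD2 (0.44, SE 0.06) and TK2 (0.51, SE 0.07) rose in Caco-2. The pyrimidine enzyme UMPS rose in HUG1N (0.54, SE 0.08) and fell in Caco-2 (-0.28, SE 0.08). CMPK1 (0.49, SE 0.09) and DCTD (0.35, SE 0.08) rose in HUG1N, and CTPS1 (-0.55, SE 0.15) and PAICS (-0.27, SE 0.08) fell in Caco-2.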

How the data were processed

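Expression was measured on 8 Affymetrix arrays with 3′ probe sets. Per the submitters' processing notes the authors used GCRMA, which corrects background by probe base content and normalizes the arrays, and they deposited log2 values, 1 per probe set and array. The GCRMA version is not given in the sources used here. Since the lowest value was 2.08 on every array, the arrays were taken to be normalized together. Precision is limited by the number of arrays.

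Of 22277 probe sets, 19070 had 1 gene symbol in the platform's annotation table, 1043 several and 2164 none. Symbols were updated through the Entrez identifier for 19058. A gene was tested if over log2 4 in at least 2 arrays, which kept 7696 and left out 4267. Tests used limma 3.58.1 in R 4.3.3 (group means, eBayes, Benjamini-Hochberg over all genes tested), with genes under an adjusted p of 0.05 called. The fit was tested on simulated data. Slide and scan batches were not analysed here.

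The genes and lists were chosen with earlier results of these data known. Values per array are given for genes called in a line with a change of at least 0.5, or in the line difference. Genes with control differences of at least 1 are named with the difference. Up to 3 genes each way per companion list and line are named with the change and SE. The other values given are of genes named to account for the set. The 18 alternatives covered the filter, scaling, variance model, each line alone, probe sets, floor, blocking on replicate number, a minimum change of 2-fold and leaving out each array.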

Additional observations from a re-analysis of the deposited data

Results flagged for a closer look

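By the probe sets that stood for the genes, the shRNA effect differed between the lines for 27 of the 50, by limma's test of the difference itself. On the log2 scale, HUG1N effect minus Caco-2 effect, the values of the 23 genes called higher were GINS4 1.58, POLE2 1.20, GINS2 1.14, CHAF1A 1.09, POLA1 1.05, GINS3 0.93, CDC7 0.83, FEN1 0.83, MCM10 0.80, MCM4 0.78, POLD1 0.77, MCM6 0.73, MCM2 0.70, MCM3 0.68, RRM2 0.68, CCNE1 0.66, MCM5 0.62, CDC6 0.55, GMNN 0.53, PCNA 0.50, TYMS 0.46, ORC3 0.37 and RFC3 0.33. Those of the 4 genes called lower were CDT1 -1.29, CCND1 -0.61, ORC4 -0.48 and RFC4 -0.28. Of these 27 calls, 18 held in all 16 alternatives other than the 2-fold minimum and 9 were lost in at least 1. With the 2-fold minimum 5 higher and 1 lower were left of the 50, and 1404 of all 7696 genes. The gap between ACTB probe sets was larger in HUG1N shRNA than in HUG1N control arrays and smaller in Caco-2 shRNA than in Caco-2 control arrays, and its part was not tested.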

How the results depend on the processing

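There were 90 pairs of a named gene of the set and a comparison. The genes named from the companion lists were not among them, and their calls are those of the main fit alone. Of the 90 pairs, 57 kept their direction and their call in every alternative apart from the 2-fold minimum, and 2 reversed. The calls kept in all were 11 of 22 in HUG1N, 12 of 25 in Caco-2, 18 of 27 in the line difference and 16 of 16 between the controls, and the report gives each loss beside the gene. The HUG1N changes of ORC4 and RFC5 turned to 0.079 and 0.033 with the mean of probe sets, where probe sets of opposite sign are averaged. Without 1 array at a time, genes of the set called higher and lower ran from 1 to 4 and from 12 to 23 in Caco-2 (median change -0.29 to -0.20), from 9 to 16 and from 3 to 7 in HUG1N (median change 0.084 to 0.20), from 17 to 23 and at 3 in the line difference, and from 7 to 15 and from 25 to 30 between the controls (median difference -0.48 to -0.40). All genes called ran from 1895 (without Caco-2 control replicate 2) to 2974 in Caco-2, from 3026 to 3603 in HUG1N, from 2640 to 3151 in the difference and from 5574 to 6046 between controls. The 12 lower calls in Caco-2 came without Caco-2 control replicate 1, and the 3 in HUG1N without HUG1N shRNA replicate 2 or HUG1N control replicate 2. In Caco-2 2 genes rose, in place of 4, with no filter, with each line fitted alone, with the mean of probe sets and with the replicate block. In HUG1N 4 fell, in place of 7, with no filter and with each line fitted alone. With a 2-fold minimum, 0 rose and 1 fell in each line, and 742 genes of all were called in Caco-2 and 903 in HUG1N. With it the difference held 5 higher and 1 lower of 1404 called, and the controls 1 higher and 15 lower of 3534. Same-numbered arrays' deviations correlated at 0.07 in Caco-2 and -0.02 in HUG1N over all genes tested. That does not settle whether the replicate numbers pair the samples. The causes of these losses were not tested.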
